A study of Sus scrofa with 6 samples.

Results

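The candidate small RNAs described here are the 204 experimental probes of a tooth germ array whose names begin with PC-, out of 742 experimental probes in all. Each carries 1 target sequence, spotted 4 times per array, and all 204 sequences differ from each other. The RNAs came from deciduous tooth germs of miniature pig embryos on days 40, 50 and 60, from the incisor, canine, premolar and molar, with 1 RNA for each of the 12 combinations. The germs carried no treatment or genetic change in the labels, were removed under a microscope, and the labels do not say whether several embryos were pooled. Small RNAs were tailed, dyed with Cy3 or Cy5 and hybridised in pairs on 6 arrays, so the number of arrays limits the precision.

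A microRNA is cut from a hairpin transcript as a short RNA and guides a silencing complex to messenger RNAs that pair with its seed. Small RNA sequencing also returns many short fragments of other RNAs, and a prediction step sorts out those whose surrounding sequence could fold into a hairpin. The endings 5p and 3p name the hairpin arm a sequence was assigned to. A tooth germ is formed by a folding epithelium and the mesenchyme it encloses. For candidates without a miRNA number in their name, no function is known from the names and none is given here. Marker miRNAs of both tissue layers were looked up. Of the epithelial probes, miR-205 was detected in all 12 RNAs, but miR-184 in only 3, at 6.11 to 6.50 log2 units. For miR-200a, miR-200b, miR-200c and miR-203 no pig miRNA probe was found. Of the mesenchymal probes, 3 of 4 were detected in all 12 RNAs. The skeletal muscle probes (miR-1, miR-133a, miR-133b and miR-206) averaged 8.40 to 8.59 log2 units in the premolars, against 6.35 to 7.86 in the other tooth types, and miR-1 itself was detected in 1 RNA. The blood probes miR-486 and miR-142 averaged 6.26 to 6.53 and were detected in 5 and 3 RNAs.

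The sequences below carry the main differences, with every run of at least 3 consecutive G in capitals. They are the target sequences of the deposited spot files, written 5′ to 3′. The first 5 belong to the candidates that differed between days.
PC-3p-48957: caguuaggucGGGaGGGa
PC-3p-30694: caugaggacGGGGGuu
PC-5p-43899: gaguaaGGGcaGGGac
PC-5p-44729: ggaGGGucggaggaga
PC-371-5p-22929: acucaaacuguGGGGGcacuuu

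The next 10 belong to the candidates with the highest mean level over the 12 RNAs.
PC-3p-27055: aGGGGcggcgcGGGGcGGG
PC-3p-39857: cucccGGGuuucggcacca
PC-3p-45009: ggacuucccguguggcu
PC-5p-26373: aggugcggccacuuguu
PC-5p-44440: gcGGGagcggccGGGGcc
PC-3p-8280: aacuacucggcguugcu
PC-3p-19163: gucccucgcGGGGGcgcgccGGGuu
PC-3p-25529: aGGGccacggugcGGGucGGG
PC-103-3p-49493: gcagcauuguacaGGGcua
PC-5p-46964: cccGGGGuguGGGGaGGG

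A run of 3 or more G stood in all 5 of the day-dependent candidates and in 7 of the 10 highest. It stood in 89 of all 204 candidates (43.63%) and in 24.91% of the 538 other probes. Candidates detected in all 12 RNAs held it in 65.85% of cases, and those detected in 2 RNAs or fewer in 26.56%.

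The candidates were short and rich in G. Their length ran from 16 to 26 bases with a median of 17, and 168 of 204 (82.35%) had at most 19 bases, against 1 of 188 mature pig miRNA probes (0.53%). The most frequent length was 16 bases, with 65 candidates, followed by 17 bases with 51, and 10 candidates had the 22 bases that were the median length of the pig miRNA probes. G made up a median of 36.84% of the bases of a candidate, against 22.73% for the pig miRNA probes. G plus C came to a median of 52.94% in the candidates and 45.45% in the pig miRNA probes. Above 60% G plus C lay 67 candidates (32.84%) and 20 pig miRNA probes (10.64%).

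Most candidates were dim. Detection in an RNA was called where the mean of a probe's 4 spots exceeded a surface through the 716 blank spots by more than 3 SD. By that measure 41 candidates were detected in all 12 RNAs, 99 in 3 to 11, 61 in 1 or 2 and 3 in none. The median candidate was detected in 4 RNAs. For pig miRNA probes and PN probes (names beginning with PN-) the median was 9, and for probes with a miR name (miR probes) it was 6. Detection in at least 3 RNAs was reached by 140 of 204 candidates (68.63%), against 176 of 188 pig miRNA probes (93.62%), 154 of 157 PN probes (98.09%) and 186 of 193 miR probes (96.37%). This count depends on where the limit is set: it was 198 candidates and 186 pig miRNA probes at 2 SD, 80 and 114 at 5 SD, and 71 and 104 with the blank median in place of the surface.

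The number of candidates detected varied widely between RNAs. On days 40, 50 and 60 it was 140, 46 and 80 in the incisors and 175, 85 and 49 in the canines. In the premolars it was 74, 195 and 57, and in the molars 89, 67 and 61, again in the order of days. The day-50 premolar and the day-40 canine therefore stood highest, and 54 of the 61 candidates seen in only 1 or 2 RNAs were seen in no other RNA than these. The blank spots of an RNA had medians of 39.2 to 273 intensity units. On all 6 arrays the density column given on the left detected more candidates than the right one. By the labels, the left column held the Cy3 RNA on every array except that of the later molars, so column and dye can hardly be told apart. The pig miRNA probes had their lowest share in the day-50 incisor as well, with 45.74% detected, and their highest, 99.47%, in the day-50 premolar. Faint candidates could lie above the blank surface in some RNAs and below it in others. PC-3p-34905, detected in 2 RNAs, lay 44.1 units above the surface in the day-50 premolar, where the limit was 31.4. In the day-50 molar it stood at -72.8 units. The part of the density column, of the dye and of the blank level in these numbers was not tested. In whole germs, fewer cells of a type and less RNA per cell cannot be told apart.

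**Figure D1:**
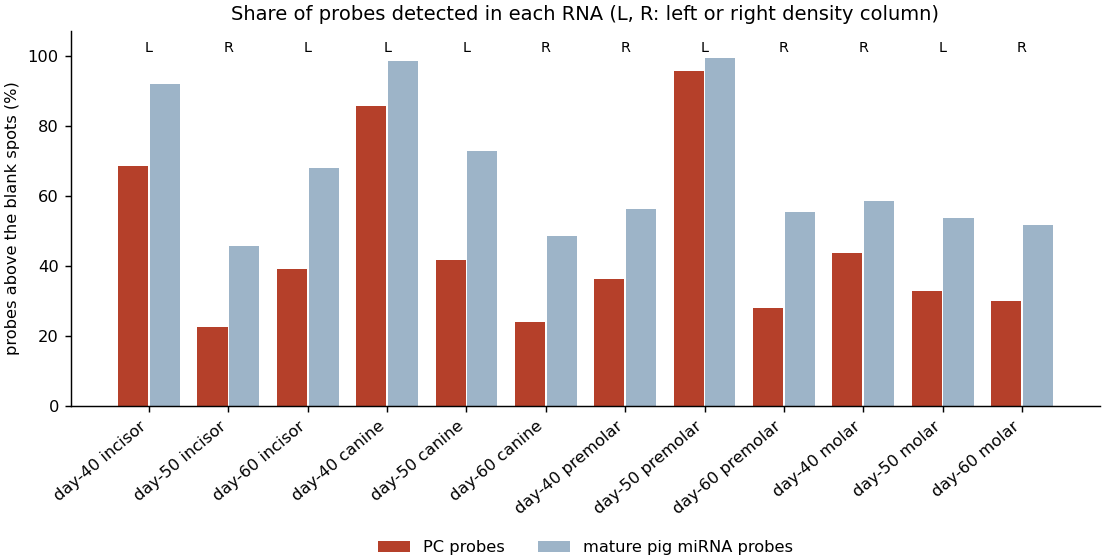
Percentage of the 204 candidates (red) and of the 188 mature pig miRNA probes (blue) above the blank spots in each of the 12 RNAs; L and R name the density column. The candidates reached 95.59% in the day-50 premolar and 22.55% in the day-50 incisor, and stayed below the pig miRNA probes in every RNA.

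Normalised levels are log2 intensities after background correction and scaling, averaged over 4 spots, where a difference of 1 is 2-fold. The median level of the candidates was 6.29 to 6.37 in every RNA, close to the floor set by the blank spots. The 4 spots of a candidate differed by a median SD of 0.0906 to 0.1503 log2 units. A few candidates carried most of the signal: the 10 highest held 58.16% to 86.06% of the candidates' summed intensity above the blank spots, and all candidates together held 15.3% to 32.72% of the intensity of all experimental probes. Brightness also depends on how tightly a probe binds, so these levels do not rank the candidates by abundance.

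**Figure D2:**
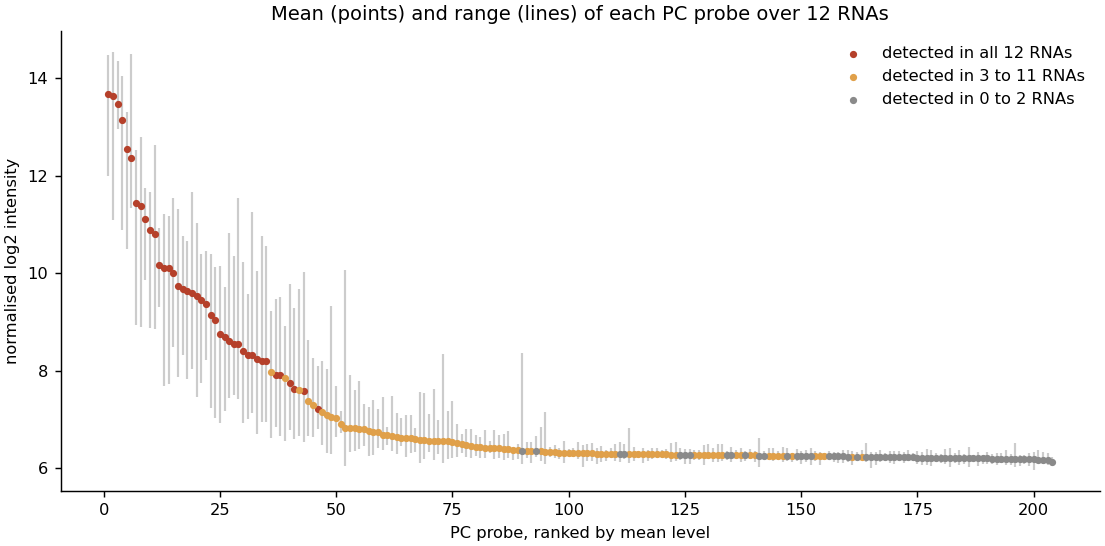
Mean (points) and range over the 12 RNAs (lines) of the normalised log2 intensity of the 204 candidates, ranked by their mean. The 41 candidates detected in all 12 RNAs (red) lie at the upper end, and the 64 detected in 0 to 2 RNAs (grey) lie near the floor.

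Brightness and detection followed base content more than length. Of 67 candidates with over 60% G plus C, 61 were detected in at least 3 RNAs and 30 in all 12. Of 108 candidates with over 40% to 60%, 67 and 9 were, and of 29 with up to 40%, 12 and 2 were. Across the 204 candidates, percent G plus C correlated with the mean level (Pearson's r = 0.56, Spearman's rho = 0.61) and with the number of RNAs that detected a probe (0.58 and 0.53). Percent G alone gave r = 0.40 with the mean level, between 0.319 and 0.472 in single RNAs, and length gave r = 0.10 and rho = 0.27. Across the 188 pig miRNA probes, percent G plus C and the mean level gave r = 0.28 and rho = 0.43. Within the 41 candidates detected in all 12 RNAs, percent G plus C and the mean level gave r = 0.36. Percent G alone gave r = 0.0016 within these 41, percent C 0.45, percent A -0.56 and percent U 0.04. Across all 204, percent C gave r = 0.24, percent A -0.41 and percent U -0.27. These correlations are across probes that share arrays and RNAs, so they are descriptions without a test.

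Detection was also set against length, arm and name. Of 168 candidates with up to 19 bases, 114 were detected in at least 3 RNAs, as were 16 of 23 with 20 to 22 bases and 10 of 13 with 23 bases and over. Detection in all 12 RNAs was found for 22 of 104 candidates named 5p and for 19 of 100 named 3p. Of 16 candidates with a miRNA number in the name, 15 were detected in at least 3 RNAs, and of 188 without a number 125 were.

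The first comparison asked which candidates changed between embryonic days, with the 4 tooth types as replicates of a day. It was made in limma on all 656 probes detected in at least 3 RNAs, with tooth type, day and dye as terms, the array as a random block and Benjamini-Hochberg adjustment over the 656. Since no condition was replicated, each p-value measures a difference against the scatter of single RNAs, not of animals. Between days 60 and 40, 5 probes passed an adjusted p of 0.05, which is 0.762% of those tested. All 5 were candidates and all were lower on day 60. Each was lower in 4 of 4 tooth types, and in none did the day-60 values overlap those of day 40.

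PC-3p-48957, which was detected in all 12 RNAs, read 9.69, 9.98, 9.45 and 10.56 in the incisor, canine, premolar and molar of day 40. In the same order it read 7.77, 8.08, 7.0 and 7.42 on day 50, and 7.12, 7.04, 6.94 and 7.38 on day 60. All 8 later values lay below the 4 of day 40. The difference of day 60 from day 40 was -2.68 ± 0.30 log2 units (SE, limma adjusted p = 0.0323), a 6.43-fold decrease, and that of day 50 from day 40 was -2.47 ± 0.30 (adjusted p = 0.0377).

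PC-3p-30694, also detected in all 12 RNAs, read 11.03, 11.66, 10.80 and 11.24 on day 40, then 9.57, 10.16, 8.73 and 8.27 on day 50, and 8.36, 9.02, 8.17 and 8.04 on day 60. In each tooth type the 3 days followed one order, highest on day 40 and lowest on day 60. The difference of day 60 from day 40 was -2.60 ± 0.35 (limma adjusted p = 0.0420), and for day 50 against day 40 the adjusted p was 0.0881.

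PC-5p-43899 read 9.32, 9.51, 9.0 and 9.44 on day 40, then 7.31, 7.67, 6.92 and 7.56 on day 50, and 6.66, 7.17, 6.87 and 7.41 on day 60. The 4 values of day 40 averaged 9.32 ± 0.22 (SD, n = 4 RNAs), and every later value was below 8. The difference of day 60 from day 40 was -2.23 ± 0.25 (limma adjusted p = 0.0323), and that of day 50 from day 40 was -2.02 (adjusted p = 0.0377).

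PC-5p-44729 read 8.56, 8.05, 8.35 and 9.67 on day 40, then 6.83, 6.87, 6.66 and 7.90 on day 50, and 6.96, 6.73, 6.85 and 7.90 on day 60. The molar was the highest tooth type on each day, and the difference of day 60 from day 50 was 0.02 ± 0.10. The difference of day 60 from day 40 was -1.56 ± 0.20 (limma adjusted p = 0.0407), and that of day 50 from day 40 was -1.58 (adjusted p = 0.0377). It was detected in 10 RNAs, not in the day-50 incisor or the day-60 canine.

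PC-371-5p-22929, whose name carries the number of miR-371, read 7.40, 7.53, 7.61 and 7.20 on day 40, then 6.58, 6.65, 6.51 and 6.50 on day 50, and 6.46, 6.61, 6.41 and 6.35 on day 60. It was detected in all 4 RNAs of day 40, in 2 of day 50 and in 1 of day 60, so 5 of its 8 later values were not above the blank spots by the detection measure. The difference of day 60 from day 40 was -0.97 ± 0.14 (limma adjusted p = 0.0453).

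**Figure D3:**
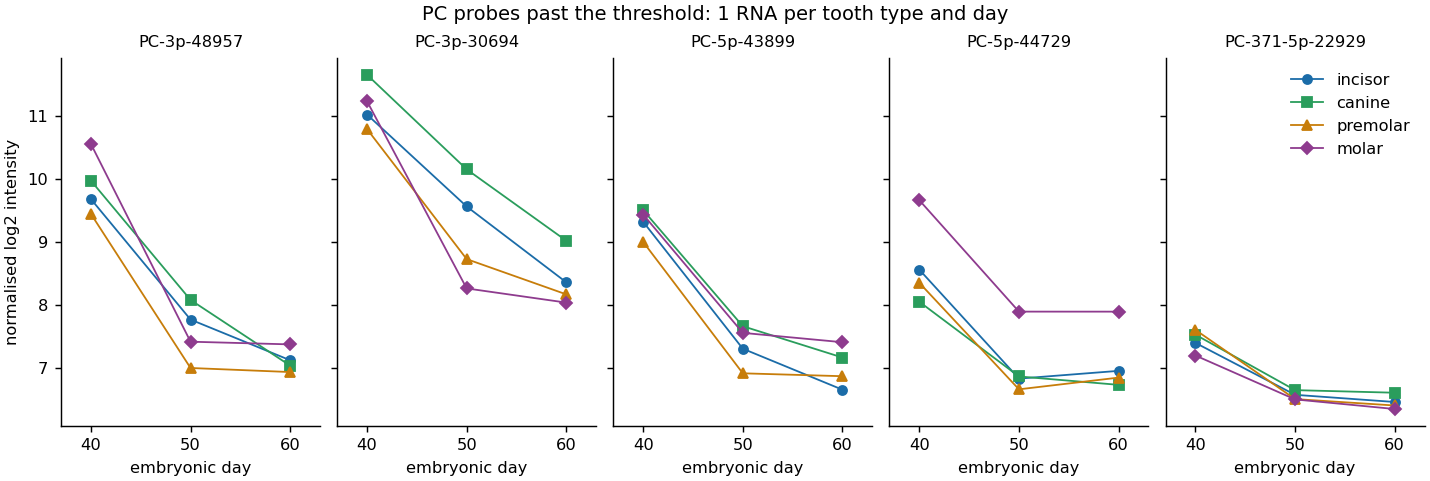
Normalised log2 intensity of the 5 candidates past the threshold between days 60 and 40, by embryonic day, with 1 line per tooth type and 1 RNA per point. All 4 values of day 40 lie above all 4 of day 60 in each panel, and PC-5p-44729 is highest in the molar on each day.

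Day and array cannot be told apart in full. Each day-40 RNA shared its array only with another day-40 RNA, so no array compares day 40 directly with a later day. The 5 differences kept their sign in all 28 alternative fits, but the calls did not hold. Without scaling between arrays, with the molars of days 50 and 60 exchanged or with an intensity trend in the variance, 0 candidates passed. The count was also 0 without the day-50 incisor, the day-60 canine, the day-60 molar or the array of the day-60 canine and day-50 premolar. It was 1 without the day-40 incisor, the day-60 incisor, the day-40 canine, the day-60 premolar or the array of the day-60 premolar and incisor, and 3 without the day-50 canine, the day-50 molar or the array of the day-50 incisor and canine. It came to 12 of 17 called probes without the day-40 premolar, 13 of 15 without the day-50 premolar and 20 of 26 without the day-40 molar. It was 15 of 20 called probes without the array of the day-40 molar and canine, 12 of 17 without the array of the day-40 premolar and incisor, and 12 of 14 without that of the later molars.

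Between days 50 and 40, 3 of 656 probes passed (0.457%), all lower on day 50: PC-5p-44729, PC-5p-43899 and PC-3p-48957, for which the values stand above. That count was 8 without the day-40 premolar, 15 without the day-40 molar, 2 without the day-50 canine, and 0 or 1 without any other single RNA. It was 10 without either array of day 40, 8 without the array of the later molars, and 0 or 1 without any other array. Between days 60 and 50, 0 of 656 probes passed (0%), while 93 had an unadjusted p below 0.05 in limma, 32 higher and 61 lower on day 60. Among them were 1 higher and 8 lower candidates, of 140 candidates tested. The smallest adjusted p among candidates was 0.185, shared by 6. Of these, PC-22-3p-57394 differed by 0.60 ± 0.15, PC-5p-41107 by -1.22 ± 0.33, PC-5p-48616 by -0.79, PC-5p-55329 by -0.73, and PC-3p-29296 and PC-5p-42342 by -0.33 each. PC-5p-48616 and PC-5p-55329 were lower on day 60 in 4 of 4 tooth types and PC-5p-41107 in 3. PC-22-3p-57394, PC-3p-29296 and PC-5p-42342 were each lower in 2 of 4. PC-22-3p-57394 rose in the canine, from 6.75 to 7.91, and in the molar, from 6.33 to 6.89, where the day-50 value was not detected. Plain means on days 50 and 60 were 6.78 and 7.12 for PC-22-3p-57394, 6.65 and 6.53 for PC-3p-29296, and 6.37 and 6.28 for PC-5p-42342. PC-5p-42342 was detected in 0 of 4 RNAs of day 60 and 2 of 4 of day 50, so its difference is one of values mostly not above the blank spots.

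The wider set of candidates lay lower on day 60 too, although few passed the test. At an unadjusted p below 0.05, 34 tested candidates were lower on day 60 than on day 40 and 0 were higher. Over all tested probes these shares were 41 lower (6.25%) and 25 higher (3.81%). The tested candidates are not all candidates, and 48 of the 140 had no detection on day 60 and so passed the filter through earlier days. In a fit without that filter, 123 of 204 candidates were lower on day 60 with a median difference of -0.03, against 346 of 742 probes with a median of 0.01. At least 2-fold lower were 23 candidates and at least 2-fold higher 4, against 35 and 39 of all 742 probes.

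The 41 candidates detected in every RNA do not depend on that filter. Of these, 35 (85.4%) were lower on day 60 than on day 40, and their median difference was -0.96. Of the 181 other probes detected in every RNA, 56 (30.9%) were lower, with a median difference of 0.25. At least 2-fold lower were 20 of the 41 candidates and 11 of the 181 others, and at least 2-fold higher were 3 and 31. Pig miRNA probes alone had 20 of 78 lower. Between days 50 and 40 the same 41 candidates had a median of -0.99, with 33 lower. Across the 28 alternative fits, 33 to 36 of the 41 were lower on day 60 and their median ran from -1.57 to -0.63, the value nearest 0 coming without the array of the later molars. Without scaling between arrays the median of all tested probes moved to 0.19 and that of all tested candidates to 0.09, and 33 of the 41 were still lower, with a median of -0.70. Mesenchymal marker probes averaged 9.74 to 9.99 on day 40, 10.27 to 10.86 on day 50 and 9.95 to 10.59 on day 60; their part in the day differences was not tested.

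The day difference followed base content among the candidates. Candidates with over 60% G plus C had a median difference of -0.57 between days 60 and 40, and 58 of 67 were lower. The median was 0.00 for those with over 40% to 60%, of which 53 of 108 were lower, and 0.02 for those with up to 40%, of which 12 of 29 were lower. Across 204 candidates the difference correlated with percent G plus C (r = -0.56, rho = -0.58) and with the mean level (r = -0.51, rho = -0.56). Within the 41 detected in all RNAs, the correlation with percent G plus C was -0.40 (rho = -0.39). Of the 30 with over 60%, 29 were lower, with a median of -1.18. Length gave r = 0.07 (rho = -0.01) across the 204, but r = 0.39 (rho = 0.43) within the 41. Of these, 31 of 34 with up to 19 bases were lower (median -1.05). With 20 to 22 bases 2 of 5 were lower (median 0.40), and with 23 bases and over 2 of 2 (median -0.83).

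The same base content was set out for the other classes. Of probes with over 60% G plus C detected in every RNA, 9 of 11 PN probes and 7 of 8 miR probes were lower on day 60, with medians of -0.59 and -0.51. Of 11 pig miRNA probes of this kind, 6 were lower and their median was -0.11. Across the 188 pig miRNA probes the correlation of the day difference with percent G plus C was -0.07 (rho = -0.01). It was -0.29 across the 157 PN probes and -0.34 across the 193 miR probes. Within probes detected in every RNA it was -0.30 for 78 pig miRNA probes, -0.36 for 57 PN probes and -0.62 for 46 miR probes. The 41 candidates detected in every RNA, at -0.40, lay within this range.

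**Figure D4:**
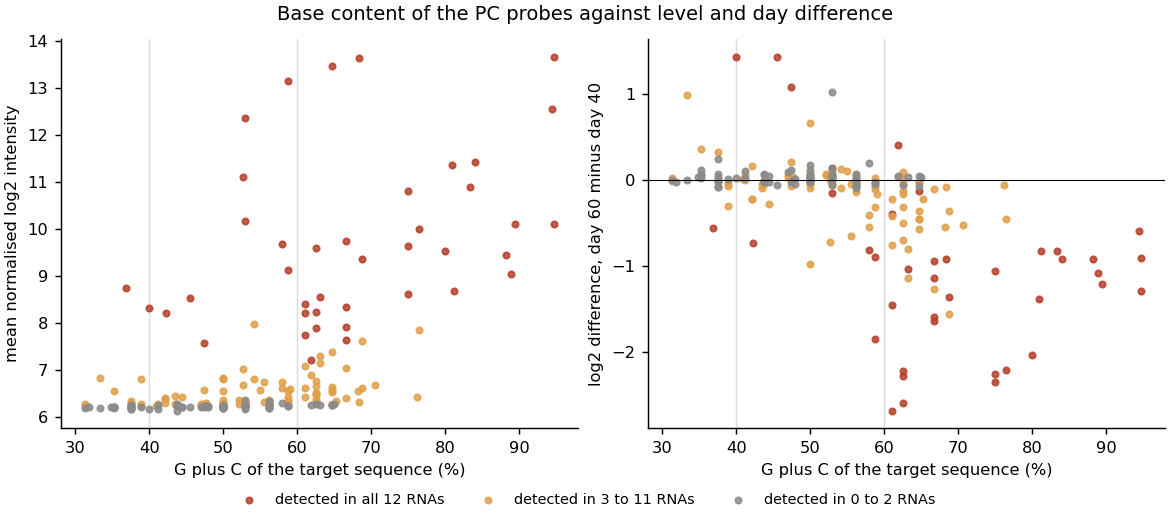
Percent G plus C of the 204 target sequences against the mean normalised log2 intensity (left) and against the log2 difference of day 60 minus day 40 (right); grey lines mark 40% and 60%. Candidates over 60% reach the highest levels and the most negative day differences, while those up to 40% lie mostly near the floor and near 0.

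The next comparison asked which candidates differed between tooth types, with the 3 days as replicates. In limma's F test over tooth types 6 of 656 probes passed (0.915%), of which 1 was a candidate, PC-5p-44729 (adjusted p = 0.0156). It was higher in molars than in incisors by 1.38 ± 0.16 log2 units (SE, limma adjusted p = 0.0427), than in canines by 1.48 ± 0.13 (adjusted p = 0.0135) and than in premolars by 1.52 ± 0.15 (adjusted p = 0.0302). It was the only candidate past the threshold in each of these contrasts, for which 0.152%, 0.152% and 0.152% of probes passed as higher. Its levels averaged 8.49 ± 1.02 in molars, 7.29 ± 0.93 in premolars, 7.22 ± 0.73 in canines and 7.45 ± 0.97 in incisors (SD, n = 3 RNAs each). The spread within a tooth type is mostly that of the days, and on each day the molar was above the other tooth types. At an unadjusted p below 0.05 the F test held 18 candidates among 123 probes. The tooth call of PC-5p-44729 failed in 16 of 28 alternatives, with adjusted p from 0.00126 to 0.336. The number of candidates passing was 34 without the day-40 molar, where 110 of 656 probes passed, 31 without its array, where 106 did, and 2 without the array of the later molars, where 4 did. It was 0 without any one other RNA except the day-50 canine, without which PC-5p-44729 was among 5 probes passing.

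After PC-5p-44729, the smallest adjusted p-values for tooth type in limma were 0.149 for PC-3p-55239, 0.151 for PC-5p-48616 and for PC-5p-58681, 0.157 for PC-5p-58250 and 0.189 for PC-5p-41107. PC-5p-58681 read 9.32 in the day-40 molar, against 7.26 to 7.75 in the other germs of day 40, and 6.28 to 6.93 in all later RNAs. PC-5p-48616 was highest in the canine on each day, at 10.05, 8.78 and 8.18 on days 40, 50 and 60, against 9.49, 7.32 and 7.30 in the incisor, 9.02, 8.08 and 7.10 in the premolar and 9.44, 7.37 and 6.69 in the molar.

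Posterior germs (premolar and molar) against anterior germs (incisor and canine) gave 0 of 656 probes past the threshold (0%) in limma, with 139 at an unadjusted p below 0.05. Of these 139, 75 were higher and 64 lower in posterior germs. Among them were 21 higher and 10 lower candidates, of 140 candidates tested. The smallest adjusted p was 0.0527, for PC-5p-44729, which was higher in posterior germs by 0.67 ± 0.08 log2 units. Its molars averaged 8.49, while its premolars, at 7.29, lay between its canines at 7.22 and its incisors at 7.45. PC-5p-58250 was lower by 0.68 ± 0.13 (SE, difference -0.68, limma adjusted p = 0.0839). It read 10.37, 9.38 and 9.08 in the premolars and 9.60, 8.31 and 8.51 in the molars of days 40, 50 and 60, against 10.76, 10.10 and 9.63 in the incisors and 10.30, 10.20 and 9.95 in the canines. On days 50 and 60 both posterior germs were below both anterior ones. PC-5p-58681 was higher by 0.63 ± 0.14 (limma adjusted p = 0.0903), PC-3p-55239 by 0.18 (0.0839) and PC-3p-58735 by 0.19 (0.0903), and PC-5p-41107 differed by -0.91 ± 0.26 (0.162). In PC-5p-58681 too the molars stood alone, averaging 7.72 against 6.77 in premolars, 6.76 in incisors and 6.94 in canines. For PC-3p-55239 these means were 6.60, 6.37, 6.36 and 6.32, in the same order. PC-3p-55239 and PC-3p-58735 were each detected in 4 of 12 RNAs and in 0 of day 60, so their differences are mostly of values not above the blank spots. The number of candidates passing was 40 without the day-40 molar, where 122 of 656 probes passed, 33 without its array, where 102 did, and 3 without the day-50 canine, where 9 did. Across all 204 candidates the median posterior difference was 0.00 and 98 were lower, against 366 of 742 probes.

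Direct ratios compare the RNAs that shared an array and need no scaling between arrays. Listed, without a test, are the ratios that reached 2-fold with one sign in each of the 4 spots. Candidates appeared 11 times, as 10 different sequences, 7 times higher and 4 times lower in the RNA named first. On the array of the day-60 canine and day-50 premolar, 4.1% of eligible probes were listed and 0 of 195 candidates. For the day-40 molar over the day-40 canine, 3.97% of probes were listed and 2 of 175 candidates: PC-5p-44729 at 1.61 ± 0.19 log2 units (SD over 4 spots), 3.06-fold, and PC-5p-58681 at 1.57 ± 0.09, 2.97-fold. For the day-40 premolar over the day-40 incisor, 3.4% of probes were listed and 1 of 140 candidates, PC-138-5p-9675, at -1.28 ± 0.06.

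The remaining arrays held 8 listings. For the day-60 premolar over the day-60 incisor, 5.7% of probes were listed and 1 of 83 candidates, PC-15a-5p-46278, at 1.76 ± 0.16. For the day-50 incisor over the day-50 canine, 10.8% of probes were listed and 4 of 85 candidates. These were PC-15a-5p-46278 at 1.61 ± 0.13, PC-5p-46964 at 1.08 ± 0.04, PC-3p-40159 at -1.21 ± 0.09 and PC-5p-48616 at -1.46 ± 0.14. For the day-50 molar over the day-60 molar, 3.25% of probes were listed and 3 of 68 candidates. PC-5p-41107 was 3.46-fold higher in the day-50 molar and PC-5p-26373 2.54-fold, while PC-5p-42602 read 8.37 in the day-60 molar and 6.16 in the day-50 molar, a log2 ratio of -2.20 ± 0.07 as day 50 over day 60. PC-5p-42602 was detected in these 2 RNAs only and lay between 6.08 and 6.32 in the 10 others. Column headings and labels of this array disagree about dye order, so the direction of its 3 ratios rests on the headings. The authors' deposited log2 values had the same sign in 11 of 11, but correlated over all 204 candidates with the ratios computed here at only 0.46 to 0.72 per array. They reached 2-fold 112 times for detected candidates, although with 1 value per probe the condition on 4 spots could not be applied. With median centring in place of loess within arrays, candidates were listed 37 times among 273 listings of all probes, against 11 among 174.

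The candidates of highest level set the later molars apart. In 8 of the 10 highest, both the day-50 and the day-60 molar lay below all 10 other RNAs, and in 1 they lay above. PC-3p-39857 read 11.13 and 11.09 in the day-50 and day-60 molar, against 13.76 to 14.54 elsewhere, a mean difference of -3.03. PC-3p-19163 read 8.94 and 9.20, against 11.45 to 12.53 elsewhere, a difference of -2.84. PC-3p-8280 went the other way, with 14.50 and 13.98 in the later molars and 11.33 to 12.93 in the others (difference 2.25).

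The other 7 differences were -2.73 for PC-3p-25529, -2.39 for PC-5p-46964, -2.32 for PC-5p-44440, -1.91 for PC-5p-26373, -1.90 for PC-3p-27055, -1.47 for PC-103-3p-49493 and 0.82 for PC-3p-45009. The day-40 molar did not share this pattern: PC-3p-39857 read 14.08 and PC-3p-19163 12.53 there. Of the 41 candidates detected in all RNAs, both later molars were below all others in 20 and above in 9. Of all 222 probes detected in every RNA, 65 lay below and 74 above, and of all 742 probes 142 and 150 did, so the array as a whole stood apart. Among all 204 candidates, both later molars lay below all other RNAs in 25 and above in 33. On the other arrays at most 23 of the 204 candidates lay above all other RNAs, the number on the array of the day-40 molar and canine, and at most 17 lay below. Later molar and array cannot be told apart, since both RNAs shared 1 array.

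**Figure D5:**
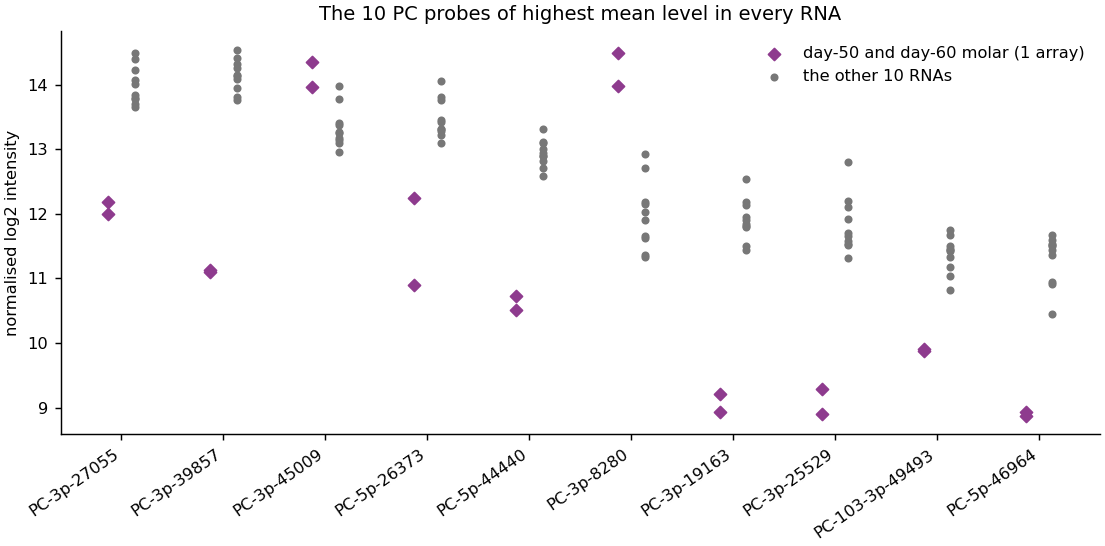
Normalised log2 intensity of the 10 candidates of highest mean level in each RNA; purple diamonds are the day-50 and day-60 molar, which shared an array, and grey points the 10 other RNAs. The diamonds lie below all grey points in 8 candidates and above them in PC-3p-8280.

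Some candidates repeat the letters of known miRNAs. Of the 204, 7 were contained in another probe's sequence and 4 contained one, in 18 pairs, and 9 of these 11 have a miRNA number in the name. The sequences below show such pairs, each printed as its longer member, with the bases shared by both probes in capitals. They are shown because a match names the known miRNA a candidate overlaps.
PC-103-3p-49493 within miR-107-3p-33: aGCAGCAUUGUACAGGGCUAu
PC-103-5p-40816 within ssc-miR-103: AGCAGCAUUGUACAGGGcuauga
PC-15a-5p-46278 within ssc-miR-15a: UAGCAGCACAUAAUGGUUUgu
PC-296-3p-9208 within miR-296-3p-176: AGGGUUGGGCGGAGGCUUUccu
PC-7c-5p-34268 within ssc-let-7c: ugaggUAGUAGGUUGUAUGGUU
PC-7e-5p-58372 within ssc-let-7e: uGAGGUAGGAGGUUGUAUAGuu
PC-7g-5p-3653 within ssc-let-7g: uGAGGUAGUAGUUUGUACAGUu
miR-138-5p-826 within PC-138-5p-9675: AGCUGGUGUUGUGAAUCAGGCCGa
ssc-miR-345-3p within PC-345-3p-22893: CCCUGAACUAGGGGUCUGGAGa
miR-2320-3p-50422 within PC-3p-7694: CGAUGAUGGUCCCUGUGUUUGu
miR-187-5p-29087 within PC-5p-42342: GCUACAACACGGGACUCGGGCGu

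Shared letters let both probes of a pair bind the same RNA, so their agreement is no independent measurement. PC-103-5p-40816 carries the ending 5p although its letters open the sequence of ssc-miR-103, a 3p miRNA. For PC-103-3p-49493 the difference of day 60 from day 40 was 0.06, against 0.07 for miR-107-3p-33. It was -0.56 for PC-15a-5p-46278 and -0.69 for ssc-miR-15a, 0.13 for PC-138-5p-9675 and 0.09 for miR-138-5p-826, and -1.04 for PC-296-3p-9208 and -0.63 for miR-296-3p-176. None of these passed in limma. PC-345-3p-22893 and ssc-miR-345-3p were both detected in 6 RNAs, with day differences of -0.16 and -0.27.

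The let-7 family, miRNAs that are known to accumulate as animal tissues mature, is represented by several candidates. PC-7g-5p-3653 read 7.63, 11.15 and 11.26 in the molars of days 40, 50 and 60, against 7.47, 7.91 and 7.98 in the incisors, 7.13, 8.59 and 7.79 in the canines and 7.19, 7.56 and 8.26 in the premolars. PC-7e-5p-58372 reached 10.02 and 9.52 in the later molars, against 6.52 to 7.73 in the 10 other RNAs. PC-7c-5p-34268, which lacks the first 5 bases of let-7c, was detected in 4 RNAs, against 12 for ssc-let-7c, and read 8.34 and 7.81 in the later molars and 6.11 to 6.40 elsewhere. All 3 were thus highest in the RNAs of the array of the later molars. Their differences between days 60 and 40 were 1.44 for PC-7g-5p-3653, 1.08 for PC-7e-5p-58372 and 0.35 for PC-7c-5p-34268, none past the threshold (limma).

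PC-15a-5p-46278, whose letters are the first 19 bases of miR-15a, varied between RNAs of one day and of one tooth type. It read 9.50, 8.52 and 8.39 in the incisors, 9.66, 6.92 and 9.62 in the canines, 8.37, 9.99 and 10.15 in the premolars and 9.67, 7.01 and 7.21 in the molars, in the order of days. The day-50 canine and the later molars were lowest, and the same 3 RNAs were lowest for ssc-miR-15a, at 6.58, 6.71 and 6.97.

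Close sequences were read side by side. There were 14 pairs of equal length that differ by 1 base, 12 of them within the candidates. In the lines below the differing base is in capitals, and a token such as U13C gives the base of the first sequence, the position counted from 1 at the 5′ end and the base of the second. The 4 pairs shown are the 2 within the candidates that hold the most negative day differences, chosen after their values were seen, and the 2 with a pig miRNA.
PC-3p-26099: gguguaggucggUggc
PC-5p-10248: gguguaggucggCggc
PC-3p-56303: cauagggccaGggagggu
PC-5p-32379: cauagggccaAggagggu
PC-22-3p-57394: aagcugccaguugaagaacugC
ssc-miR-22-3p: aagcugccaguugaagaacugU
PC-7b-5p-10: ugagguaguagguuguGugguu
ssc-let-7c: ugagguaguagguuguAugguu

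PC-3p-26099 and PC-5p-10248 differ by U13C only. PC-5p-10248 was detected in 12 RNAs and read 12.06, 12.63, 11.65 and 12.51 on day 40 in the incisor, canine, premolar and molar, 11.18, 11.34, 9.86 and 9.48 on day 50, and 9.67, 10.11, 10.36 and 8.86 on day 60. PC-3p-26099 was detected in 7 and lay between 6.22 and 7.08 in all 12. Its day difference was -0.36 ± 0.23, that of PC-5p-10248 was -2.35 ± 0.63, and neither passed in limma (adjusted p = 0.694 and 0.256).

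PC-3p-56303 and PC-5p-32379 differ by G11A. PC-3p-56303 read 9.01, 9.53, 8.98 and 9.58 on day 40 and 7.21, 7.99, 7.02 and 8.12 on day 60, without overlap. Its difference of -1.64 ± 0.25 just missed the threshold in limma (adjusted p = 0.0501) and passed in 8 of 28 alternatives. PC-5p-32379 differed by -0.76 ± 0.19 (limma adjusted p = 0.212). The pairs with pig miRNAs had closer values: 0.66 for PC-22-3p-57394 and 0.68 for ssc-miR-22-3p (C22U), and 1.43 for PC-7b-5p-10 and 1.5 for ssc-let-7c (G17A).

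Joining candidates within 3 edits of each other, or with a shared run of at least 14 bases, gave 18 families with 67 members and left 137 candidates single. Members of a family share letters and so are not independent. The family of the called candidate PC-5p-43899, printed above, has 2 further members, which were picked for display with their values known.
PC-3p-36835: gagcagggcagggacc
PC-5p-57957: gagcaggggcagggacc

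All 3 were detected in every RNA and had nearly equal day differences, -2.23 for PC-5p-43899, -2.26 ± 0.35 for PC-3p-36835 (limma adjusted p = 0.0501) and -2.21 ± 0.41 for PC-5p-57957 (adjusted p = 0.0781). PC-3p-36835 read 9.57, 10.16, 9.51 and 10.83 on day 40, 8.25, 8.58, 7.97 and 7.87 on day 50, and 7.49, 8.10, 7.43 and 7.62 on day 60. PC-5p-57957 read 11.25, 11.52, 10.93 and 11.55 on day 40, 9.55, 10.22, 9.88 and 8.84 on day 50, and 9.03, 9.87, 8.83 and 8.49 on day 60. In both, every value of day 40 was above every later one.

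The largest family, with 15 members, and the next, with 8, were faint. The 4 members shown from the largest open with UAGG and close with UCGGA.
PC-5p-17308: uaggggucgagucgga
PC-5p-34181: uaggggucggaucgga
PC-5p-45059: uaggugucgaaucgga
PC-5p-55708: uaggcaucgaaucgga

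Members of the largest family were detected in 2 to 4 RNAs at mean levels of 6.19 to 6.33, and 7 of 15 were tested. The letters UCGGA of the members shown are not in every member, since PC-5p-31989 lacks them. Searched on the given strand, UCGGA stood in 43 of 204 candidates (21.08%), in 23 of them at the 3′ end. It stood in 3 of 188 pig miRNA probes, 1 of 157 PN probes and 0 of 193 miR probes. Of the 43, 19 were detected in at least 3 RNAs and 0 in all 12. The shorter letters UCGG, which lie within UCGGA, stood in 71 candidates, 8 of them detected in all 12 RNAs.

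A family of 7 split by level. PC-5p-55329 was detected in all 12 RNAs, averaged 9.13 and differed by -1.85 between days 60 and 40 (limma adjusted p = 0.111). The 6 others were detected in 5 to 7 RNAs with differences of -0.70 to -0.05. The pair PC-5p-16513 and PC-5p-52539, shifted by 1 base against each other, had day differences of -1.22 and -1.29.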

How the data were processed

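The members are all experimental probes whose name begins with PC-; they, the lists and the tests were chosen with earlier results of these data known. Per the labels' protocols, small RNAs were filtered out, given a poly(A) tail and a tag that takes Cy3 or Cy5. For the scanner and image software, the sources used here give no name. Per the file headers, the deposited files give the linear mean intensity of each of 3968 spots per array and channel, before any background subtraction. A deposited table holds the authors' log2 values, 1 per probe and array, whose scaling and centring stay unknown; they served only as an alternative for direct ratios. RNAs were assigned to columns by the headings and dyes by the labels, which disagree on the array of the later molars. For one incisor the title and the remaining labels name different days, and it was taken as day 50.

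From the intensities, a robust loess surface (span 0.3) was fitted through the 716 blank spots, followed by normexp (offset 50), loess within and Aquantile between arrays, and the mean of 4 spots. Tests were made in limma 3.58.1 (statmod 1.5.0, R 4.3.3) on log2 values of 656 probes, of which 140 are candidates, with tooth type, day and dye as terms. The correlation within arrays was 0.83, with 5 residual degrees of freedom (prior 1.26), and tests were two-sided with Benjamini-Hochberg adjustment and a threshold of 0.05. The procedure was tested on simulated data. Sequence features and matches were computed in Python 3.11.15 (pandas 2.3.3, scipy 1.17.1, networkx 3.6.1).

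Candidates named in the text are those past the threshold, the 10 of highest mean level, the 6 of smallest p in 4 contrasts, the highest and lowest direct ratios and those that match another probe; members of families and pairs were added after their values were seen. Alternatives changed the background, the scaling, the block, the dye assignment, the filter and the variance model, exchanged the later molars, and left out each RNA and each array.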

Additional observations from a re-analysis of the deposited data

Results flagged for a closer look

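In each day's 4 RNAs, 30 named candidates were checked for a single RNA that stood far from the other 3, relative to the range of the 4. Of 90 such groups 16 were marked, where chance marks about 5% of groups. That share is no expectation here, since some of the 30 were named for differences between RNAs, and the groups share arrays. The later molars account for most of them.

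Low in the day-60 molar were PC-3p-27055 (12.0002, against 13.65 to 13.77 in the other germs of that day), PC-3p-39857 (11.09, against 13.76 to 14.14), PC-5p-44440 (10.50, against 12.8874 to 13.0006) and PC-3p-25529 (8.90, against 11.51 to 11.71). PC-3p-19163 was low in the day-50 molar (8.94, against 11.45 to 11.91) and in the day-60 molar (9.20, against 11.49 to 11.95). PC-103-3p-49493 was low in the same RNAs, at 9.87 on day 50 (against 11.43 to 11.74) and 9.91 on day 60 (against 11.43 to 11.67). High in a later molar were PC-5p-44729 (7.90 on day 50, against 6.66 to 6.87), PC-3p-45009 (14.35 on day 50, against 13.25 to 13.37) and PC-5p-42602 (8.37 on day 60, against 6.21 to 6.32). Both later molars shared 1 array, so molar and array cannot be told apart.

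PC-22-3p-57394 was high in the day-60 canine (7.91, against 6.81 to 6.89), and PC-3p-55239 was high in the day-40 molar (6.78, against 6.45 to 6.50). PC-15a-5p-46278 was low in the day-40 premolar (8.37, against 9.50 to 9.67). PC-3p-29296 was low in the day-40 canine (6.29, against 6.51 to 6.53), and PC-5p-42602 was high in the day-40 molar (6.21, against 6.10 to 6.11), although it was detected in 0 of these 4 RNAs.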

How the results depend on the processing

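The numbers below count candidates and are grouped by setting. With median centring within arrays, 9 candidates passed between days 60 and 40, 0 between days 50 and 40 and 0 across tooth types. Without scaling between arrays these day counts were 0 and 0, and 1 candidate passed for posterior against anterior germs, as 1 did without background correction. Without the array block, 19 passed between days 60 and 40, 16 between days 50 and 40 and 0 across tooth types. With the dye taken from the density column, 0 passed across tooth types. With the later molars exchanged, 0 passed between days 60 and 40 and 0 between days 50 and 40. With all experimental probes tested, 8 passed between days 60 and 40. With probes detected in at least 6 RNAs, 0 passed between days 50 and 40 and 3 for posterior germs. With an intensity trend, 0, 0 and 4 passed for days 60 against 40, days 50 against 40 and posterior germs. Between days 60 and 50, 0 passed in all 28 alternatives (limma).

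On leaving out 1 RNA or 1 array at a time, the counts ran from 0 to 20 for days 60 against 40, from 0 to 15 for days 50 against 40, from 0 to 34 across tooth types and from 0 to 40 for posterior germs, with the highest value without the day-40 molar each time. The correlation within arrays ran from -0.34 to 0.97 over these fits. Candidates detected in at least 3 RNAs numbered 80 at 5 SD of the blank spots and 71 with the blank median in place of a surface. Direct ratios of candidates were listed 37 times with median centring. The authors' values reached 2-fold 112 times for detected candidates, without the condition on 4 spots. The 5 day differences and that of PC-3p-56303 kept their sign in all 28 alternatives, and each of the 5 lost its call in 11 to 16 of them; the cause was not tested. No paired analysis was possible because the labels carry no replicate numbers shared between groups and each condition has 1 RNA; tooth type and array are terms of the fits themselves, and each direct ratio pairs the RNAs of 1 array. Spots near the blank level limit what can be seen of the 64 candidates detected in at most 2 RNAs.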
